A study of Danio rerio with 6 samples.

Results

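The genes described here code for collagens, laminins, fibronectins, integrins and a few of their matrix partners in zebrafish embryos exposed to an arachidonic acid epoxide. They were chosen by symbol alone: a probe set is a member if its only gene symbol on the array starts with col and a digit, lama, lamb, lamc, fn1, itga, itgb, fbn, fbln, nid or sparc. This gave 46 probe sets for 38 genes among 15502 tested, and 7 of the genes had more than 1 probe set. By family there were 25 collagen, 8 laminin, 4 fibronectin and 5 integrin probe sets, and 4 for nidogen, fibulin and sparc genes. No single symbol started with fbn, and 1 probe set with several symbols, of which 1 was col1a1b, was left out by the rule.

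Pools of whole wild type AB embryos were compared at 36 h post fertilisation, with 3 arrays for each treatment. EET embryos had been kept in 5 µM 11,12-EET, which cytochrome P450 enzymes form from arachidonic acid, from 24 h onwards, so for 12 h, and DMSO embryos in the solvent DMSO over the same period. Both groups were grown at the same temperature and dechorionated with pronase, and 25 embryos went into each treatment group. The arrays are labelled biological replicates without saying whether clutches were shared, so the p-values measure the spread between these pools. Of 13 marker genes for nerve, blood, lens, muscle, skin, liver and other tissues 10 were measured and 9 were at or above the median level of all probe sets, as whole embryos should show. The exception was the lens gene cryaa, at 3.75, 3.78 and 0.93 in EET and 4.10, 3.80 and 1.68 in DMSO. It was lowest in replicate 3 of both treatments. The replicate 3 arrays differed from the rest in both treatments in an earlier look at these data, so values with and without them are given where it matters.

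Collagens are the rope and mesh proteins of the extracellular matrix: each molecule is a triple helix of chains, and fibrillar collagens assemble into tensile fibrils under the skin, in tendon, in fin folds and around the notochord. Laminins are cross-shaped trimers on which basement membranes are built, and nidogen ties them to the collagen mesh. Fibronectin is a soluble dimer that cells pull into fibrils, and it guides heart precursors and somite boundaries in zebrafish. Integrins are the paired alpha and beta receptors through which cells hold these proteins. At the stage studied the fin folds, myotendinous junctions and notochord sheath are being built from them.

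Values are log2 signals. A probe set is called brighter here if its mean over the 6 arrays is at or above 4.81, the median of all tested probe sets, which holds for 26 of the 46 members (56.5%). The split matters because precision depends on level: the median SD between replicates was 0.147 for the 26 brighter members and 0.474 for the 20 dimmer ones, against 0.145 and 0.505 over all brighter and dimmer probe sets.

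**Figure D1:**
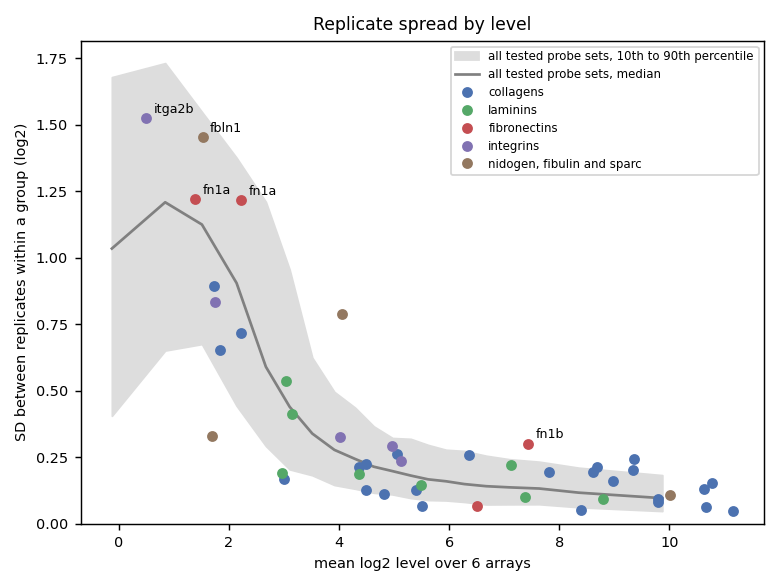
Standard deviation between replicates within a group (log2, vertical) against the mean log2 level over 6 arrays (horizontal) for the 46 members, coloured by family, over the median (line) and the 10th to 90th percentile (grey) of all tested probe sets in 20 bins of level. Most members follow the curve of all probe sets. Of the 5 above the 90th percentile of their own bin, fn1b (SD 0.30) and 1 fbln1 probe set (SD 0.79) lie farthest out.

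Across the 46 members the fibronectin gene fn1b stood highest among the well measured probe sets in EET, at 2.22-fold, while most collagens lay slightly lower. Of 25 collagen probe sets 20 (80%) were lower in EET by group mean, against 50.5% of all probe sets, with a median log2 difference of -0.183 for collagens and -0.002 for all. Laminins had a median of 0.067 with 5 of 8 higher. None of the 46 passed the test: limma called 0 members at an adjusted p under 0.05 over all 15502 probe sets, where it called 0% of all of them, and the smallest adjusted p of a member was 0.637. At an unadjusted p under 0.05 there was 1 member higher (2.17% of 46) and 6 lower (13.0%), where 2.66% and 2.61% of all probe sets were. In 2 members every EET array lay above every DMSO array (4.35%, against 5.81% of all probe sets), and in 9 every EET array lay below (19.6%, against 5.91%).

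In bulk RNA of whole embryos, fewer cells that make a matrix protein and less of its transcript per cell cannot be told apart. Several of the 9 probe sets also measure chains of the same collagen, so they are not independent. A measure of RNA integrity differed between the groups: the 3' minus 5' log2 difference of the actin control was 2.14 to 2.30 in EET arrays and 1.74 to 2.01 in DMSO arrays, while that of GAPDH was 0.94 to 1.27 in EET and 0.88 to 1.02 in DMSO. Its part in the differences described here was not tested.

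**Figure D2:**
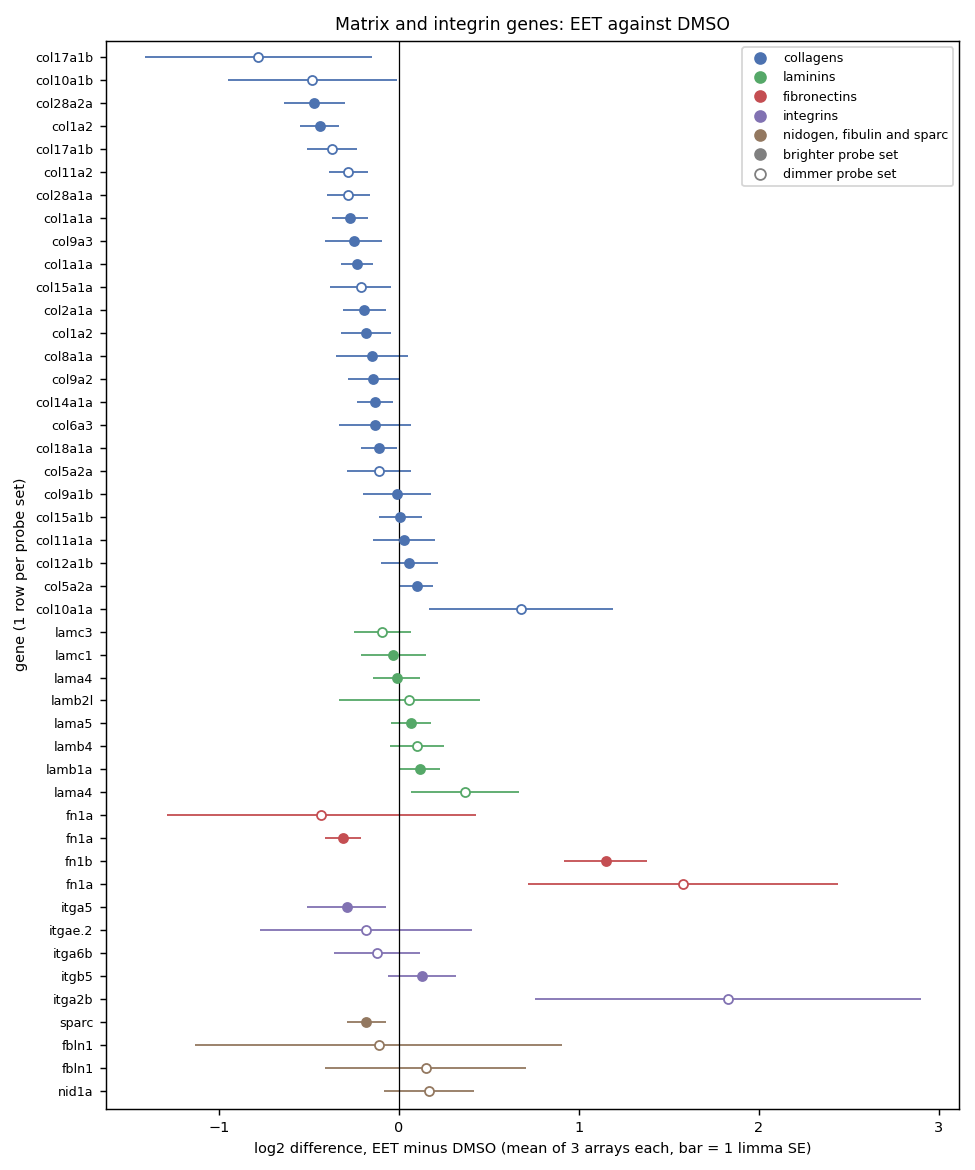
Log2 difference, EET minus DMSO (horizontal), of each of the 46 probe sets, 1 row each, ordered within family, with points for the mean of 3 arrays against 3 and bars of 1 limma standard error. Filled points are brighter probe sets. Collagens lie mostly left of 0, from -0.78 to 0.68, laminins between -0.09 and 0.37, and fn1b at 1.15. The bar of fn1b (0.23) is narrower than those of the dim fn1a and itga2b probe sets but the widest among brighter members.

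Type I collagen, the main fibrillar collagen of skin, fin fold and later bone, is a trimer of chains coded in zebrafish by col1a1a, col1a1b and col1a2. The probe set of col1a2 with the smaller p had levels of 9.57, 9.70 and 9.45 in EET arrays, against 9.97, 10.02 and 10.06 in DMSO arrays. Every EET array was therefore below every DMSO array, by a log2 difference of -0.44 ± 0.11 (limma SE, 95% interval -0.71 to -0.17), or 1.36-fold lower in EET. Its unadjusted p was 0.00739 and its adjusted p 0.807 over all probe sets and 0.498 among the 7751 brighter ones. The second col1a2 probe set read 10.48, 10.72 and 10.82 in EET and 10.87, 10.73 and 10.98 in DMSO. There the groups overlapped and the difference was -0.18 ± 0.14, so both probe sets of col1a2 point the same way but only 1 separates the groups.

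Both col1a1a probe sets separated the groups, by small amounts. The first read 10.64, 10.50 and 10.48 in EET arrays and 10.84, 10.79 and 10.80 in DMSO arrays, a difference of -0.27 ± 0.10 (95% interval -0.51 to -0.03). The other read 11.06, 11.00 and 11.09 in EET and 11.28, 11.22 and 11.32 in DMSO, a difference of -0.23 ± 0.09. Their adjusted p was 0.930 each over all probe sets and 0.675 and 0.733 among the brighter ones. Both have names ending in s_at, which the array maker gives to probe sets that can match several transcripts, so signal of col1a1b in them cannot be told apart. For all 4 type I probe sets the difference was negative in replicates 1 and 2 and in the replicate 3 pair: -0.36 and -0.60 for the first col1a2 probe set, -0.20 and -0.16 for the second, -0.24 and -0.32 for the first col1a1a, and -0.22 and -0.23 for the other.

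The remaining fibrillar chains did not share 1 direction. The gene col2a1a, whose type II collagen fills the notochord sheath and cartilage, read 10.61, 10.57 and 10.43 in EET and 10.91, 10.63 and 10.64 in DMSO. The groups did not overlap, though the nearest arrays of each were almost level, and the difference was -0.19 ± 0.12 (unadjusted p = 0.178). Type XI collagen chains join type II fibrils: col11a2 differed by -0.28 ± 0.11 without overlap, and col11a1a by 0.03 ± 0.17 with overlap. The gene col5a2a codes for a type V chain, which starts type I fibrils and limits their width. Its brighter probe set went the other way from type I, with 8.40, 8.43 and 8.50 in EET against 8.29, 8.38 and 8.36 in DMSO. Here every EET array was above every DMSO array, but the difference was only 0.10 ± 0.09 (95% interval -0.13 to 0.33), and its dimmer probe set gave -0.11 ± 0.18.

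**Figure D3:**
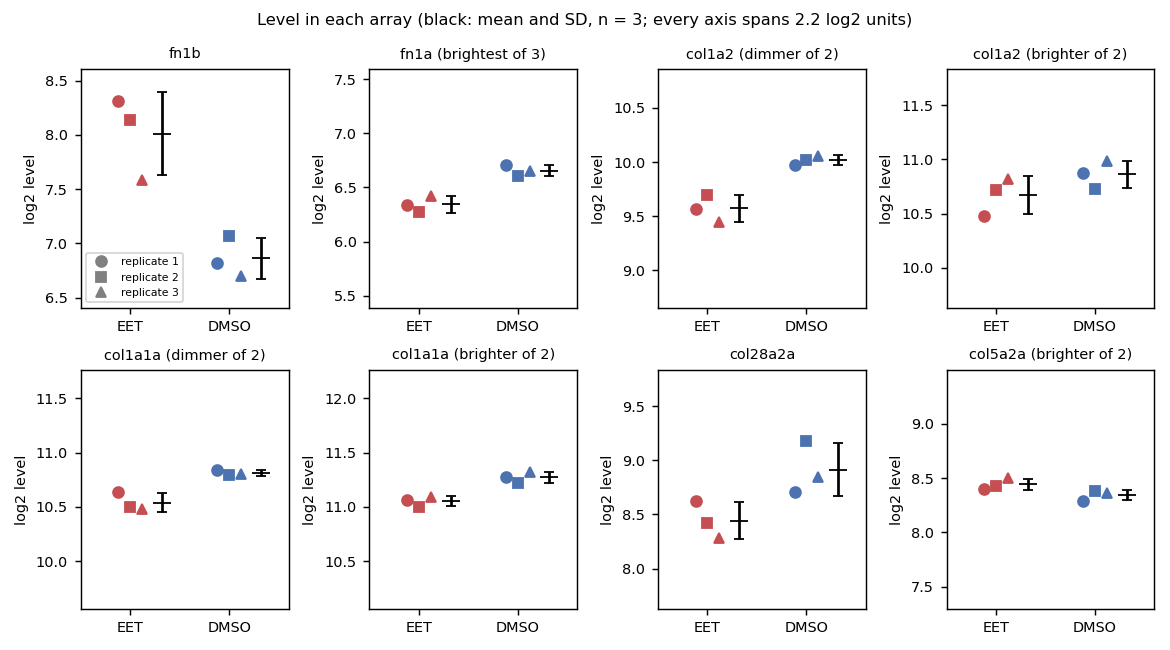
Log2 level in each array (vertical) of 8 probe sets, with EET left and DMSO right, 1 marker shape per replicate number, and black bars for the mean and SD (n = 3). All axes span the same range. The EET arrays of fn1b lie at 7.58 to 8.31 above DMSO arrays at 6.70 to 7.07, while fn1a, col1a1a and col28a2a and 1 of the col1a2 probe sets show the EET arrays just below the DMSO arrays.

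Fibril-associated collagens sit on the surface of fibrils and link them to their surroundings. Of 5 probe sets 4 were lower in EET by group mean, against 50.5% of all probe sets, with a median of -0.131. The groups separated in 0 of the 5, against 5.81% of all probe sets upwards and 5.91% downwards, and 5 probe sets are too few to read anything from either count. The type IX genes col9a1b, col9a2 and col9a3, partners of type II collagen, differed by -0.01 ± 0.19, -0.14 ± 0.14 and -0.25 ± 0.16. The type I partners col12a1b and col14a1a differed by 0.06 ± 0.16 and -0.13 ± 0.10. All 3 type IX genes were lower in replicate 3 than in replicates 1 and 2 of the same treatment, by 0.20 to 0.39 on average (col9a1b -0.39, col9a2 -0.20, col9a3 -0.24), a shift as large as or larger than their difference between treatments except for col9a3, where the 2 were close.

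The other collagens belong to meshes, membranes and cell surfaces, and 9 of their 11 probe sets were lower in EET by group mean (median -0.213). The largest well measured difference was that of col28a2a, a gene for a collagen with von Willebrand A domains. It read 8.62, 8.42 and 8.28 in EET arrays, against 8.71, 9.18 and 8.85 in DMSO arrays, without overlap and by -0.47 ± 0.17 (95% interval -0.90 to -0.04, adjusted p = 0.930). The spread among its DMSO arrays was as wide as its gap to EET. Its probe set shares a sequence cluster name with one annotated to perp, so which gene it measures is uncertain, and the perp probe set differed by 0.11 with overlap. The related col28a1a, on a dimmer probe set, read 4.31, 4.44 and 4.30 in EET and 4.80, 4.48 and 4.61 in DMSO, a difference of -0.28 ± 0.12.

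Type XVII collagen is a transmembrane protein of the hemidesmosomes that pin basal skin cells to their basement membrane. One col17a1b probe set read 2.95, 2.69 and 2.81 in EET and 3.39, 3.01 and 3.16 in DMSO, a difference of -0.37 ± 0.14 without overlap (unadjusted p = 0.0456, adjusted p = 0.930). At this level the replicate spread of most probe sets is wide, and no detection calls were used, so it is not known to be above background. The other col17a1b probe set differed by -0.78 ± 0.63 with overlap. The basement membrane collagens col15a1a, col15a1b and col18a1a, which carry sugar chains and release endostatin-like fragments, differed by -0.21 ± 0.17, 0.01 ± 0.12 and -0.11 ± 0.10, each with overlap. For col18a1a the 95% interval, from -0.37 to 0.14, leaves room for a small difference only.

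Of the rest, col6a3, a chain of the beaded filaments around muscle cells, differed by -0.13 ± 0.20 and the notochord gene col8a1a by -0.15 ± 0.20. In both the replicate 3 pair had the opposite sign, at 0.19 and 0.20, from replicates 1 and 2, at -0.30 and -0.33. The type X genes col10a1a and col10a1b, linked to skeletal cells, were dim and differed by 0.68 ± 0.51 and -0.48 ± 0.47. The col10a1a probe set shares a cluster name with one annotated to cdc42, so its gene is uncertain too.

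The fibronectin gene fn1b and the brightest probe set of fn1a lay on opposite sides of 0. The level of fn1b was 8.31, 8.14 and 7.58 in EET arrays, against 6.82, 7.07 and 6.70 in DMSO arrays. All EET arrays were above all DMSO arrays, and replicate 3 was the lowest array of each group. The difference was 1.15 ± 0.23 (limma SE, 95% interval 0.58 to 1.72, unadjusted p = 0.0031), with an adjusted p of 0.637 over all probe sets. Among the 7751 brighter probe sets, where limma called 0.0774% of all, fn1b had an adjusted p of 0.150 and 0 of the 26 brighter members were called. Of these 26, 18 (69.2%) were lower by group mean, against 50.1% of all brighter probe sets. In the fit of the brighter probe sets 1 of the 26 was higher at an unadjusted p under 0.05 and 5 were lower, against 3.02% and 3.64% of all. In 2 members the EET arrays lay wholly above (7.69%, against 6.27%) and in 6 wholly below the DMSO arrays (23.1%, against 6.77%).

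The call of fn1b depended on how the spread between arrays was modelled and on which arrays were used, while its direction did not. Its SD within a group, 0.30, was above the 90th percentile (0.233) of probe sets of like level (median 0.132), and replicate 3 was lower than the other replicates of both groups. In replicates 1 and 2 alone the difference was 1.28 ± 0.14 and fn1b was called among the brighter probe sets (limma, adjusted p = 0.0146, where 0.0903% of all were called). A batch term for the replicate 3 arrays gave an adjusted p of 0.00454 (0.155% called), and in the replicate 3 pair alone the difference was 0.88. With all 6 arrays and no replicate 3 term it was called with array weights (limma, adjusted p = 0.0322), where the share of all called was not counted. It was also called with the replicate number as a block (limma, adjusted p = 0.0147, 0.155% called), which includes a term for replicate 3. Without EET replicate 3 alone fn1b was called at 1.36 ± 0.14 (limma, adjusted p = 0.0208). With any other single array left out it was not called (limma, adjusted p 0.35 to 0.667). The share of all called was not counted in these fits. Over 14 alternatives fn1b was called in 5, with adjusted p from 0.00454 to 0.667 and a difference from 0.97 to 1.36.

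The brightest fn1a probe set read 6.34, 6.27 and 6.42 in EET arrays and 6.71, 6.61 and 6.65 in DMSO arrays. It separated the groups in the other direction, at -0.31 ± 0.10 (95% interval -0.55 to -0.07, unadjusted p = 0.0202, adjusted p = 0.930 over all and 0.628 among the brighter). Its other probe sets were dim and gave -0.43 ± 0.86 and 1.58 ± 0.86. The second of these read 3.12, 2.18 and 1.23 in EET and 0.05, -0.49 and 2.24 in DMSO, and its difference was 2.87 in replicates 1 and 2 and -1.01 in the replicate 3 pair, so it gives no usable direction.

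None of the 8 laminin probe sets separated the groups, where 5.81% of all probe sets did so upwards and 5.91% downwards. With so few probe sets this count does not set laminins apart. The zebrafish genes lamb1a and lamc1, whose loss disrupts the notochord, code for a beta and a gamma laminin chain. The level of lamb1a was 8.94, 8.84 and 8.78 in EET and 8.84, 8.71 and 8.64 in DMSO, a difference of 0.12 ± 0.11 (95% interval -0.14 to 0.39). For lamc1 the levels were 7.38, 7.19 and 6.77 in EET and 7.11, 7.17 and 7.15 in DMSO, a difference of -0.03 ± 0.18, with replicate 3 the lowest EET array. The basement membrane alpha chain gene lama5 differed by 0.07 ± 0.11 (95% interval -0.20 to 0.34). The vessel-linked alpha chain gene lama4 gave -0.01 ± 0.13 on its brighter and 0.37 ± 0.30 on its dimmer probe set. In the GRCz12tu gene table lamb4 is the protein-coding neighbour of lamb1a, and it differed by 0.10 ± 0.15, while lamb2l and lamc3 differed by 0.06 ± 0.39 and -0.09 ± 0.16.

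Integrin receptors were thinly covered, with 4 alpha genes and 1 beta gene. None of the 5 probe sets separated the groups, where 5.81% of all probe sets did so upwards and 5.91% downwards, so a count this small does not set integrins apart. The gene itga5, the alpha chain of the classical fibronectin receptor, read 5.20, 4.46 and 4.81 in EET arrays and 5.26, 5.15 and 4.91 in DMSO arrays. The difference was -0.29 ± 0.22 with overlap, on the opposite side from fn1b. The vitronectin receptor gene itgb5 read 5.19, 5.01 and 5.38 in EET and 4.83, 4.98 and 5.37 in DMSO, a difference of 0.13 ± 0.19, and replicate 3 was the highest array in both groups. The laminin receptor gene itga6b differed by -0.12 ± 0.24 and itgae.2, an alpha E type gene, by -0.18 ± 0.59. The thrombocyte and early blood stem cell gene itga2b had levels of 1.74, 0.71 and 1.78 in EET and -1.69, 1.97 and -1.52 in DMSO. That is a difference of 1.83 ± 1.07, with DMSO replicate 2 above every EET array.

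Among the matrix partners, sparc, a collagen-binding glycoprotein, was the one well measured. It read 10.06, 9.91 and 9.80 in EET arrays and 10.10, 10.19 and 10.02 in DMSO arrays, a difference of -0.18 ± 0.11 with overlap. Its cluster name is shared by probe sets annotated to khdrbs1a, rps7, rps6 and st8sia1, so its gene assignment is uncertain. Both fbln1 probe sets, for the matrix glycoprotein fibulin 1, were set by DMSO replicate 3. The brighter of them read 4.42, 4.23 and 3.75 in EET and 4.73, 4.46 and 2.77 in DMSO, a difference of 0.15 ± 0.56 that was -0.27 without the replicate 3 arrays. The basement membrane linker gene nid1a was dim and differed by 0.17 ± 0.25.

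How members behaved between replicate sets was uneven. The sign of the difference was the same in replicates 1 and 2 as in the replicate 3 pair for 18 of the 26 brighter members and for 26 of all 46, while 55.7% of all brighter probe sets and 53.7% of all probe sets shared it. By family it was shared in 17 of 25 collagen, 2 of 8 laminin, 2 of 4 fibronectin and 3 of 5 integrin probe sets. Collagens as a group had a median difference of -0.17 in replicates 1 and 2 and -0.23 in the replicate 3 pair, and fibrillar collagens -0.20 and -0.23. The laminin median, at 0.13 and -0.21, changed sign.

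**Figure D4:**
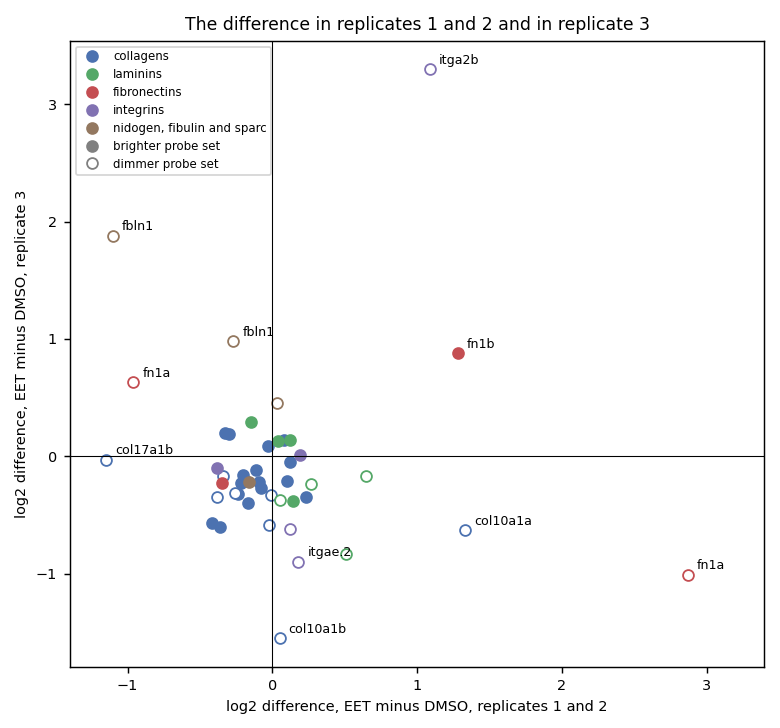
Log2 difference, EET minus DMSO, in the replicate 3 pair (vertical) against that in replicates 1 and 2 (horizontal) for the 46 probe sets, filled where brighter. Most filled collagen points sit in the lower left near 0, fn1b sits alone at 1.28 and 0.88, and the dim itga2b, fn1a, fbln1, col10a1a and col10a1b probe sets lie far from 0 on at least 1 axis.

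Genes that work on or beside these proteins were taken from fixed lists, with 1 probe set a gene and 0 called over all probe sets in each list. Of 18 measured collagen processing and crosslinking genes 7 lay above and 11 below 0, and the median difference was -0.041. In this list crtap, part of the collagen prolyl 3-hydroxylation complex, read 8.81, 8.71 and 8.73 in EET and 8.49, 8.47 and 8.56 in DMSO, a difference of 0.24 ± 0.09 (adjusted p = 0.930). The collagen chaperone gene fkbp10b lay on the other side, at -0.21 ± 0.11, also without overlap. The procollagen processing enhancer gene pcolcea and the prolyl 4-hydroxylase gene p4ha1b, differed by -0.13 ± 0.10 and 0.25 ± 0.22.

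Other matrix proteins numbered 25 measured genes, of which 10 lay above and 15 below 0 around a median of -0.096. The thrombospondin gene thbs3a separated the groups, with 5.42, 5.56 and 5.37 in EET and 4.53, 4.91 and 4.80 in DMSO, a difference of 0.70 ± 0.14 (unadjusted p = 0.00302, adjusted p = 0.632). The periostin gene postnb, whose product binds type I collagen and fibronectin, differed by -0.23 ± 0.13 without overlap, being 10.60, 10.54 and 10.25 in EET and 10.63, 10.68 and 10.78 in DMSO. The keratocan gene kera and the thrombospondin gene thbs1b differed by -0.26 ± 0.16 and 0.30 ± 0.20 with overlap.

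The machinery inside the cell that integrins pull on lay close to 0. Among 28 measured genes 12 differences were positive and 16 negative (median -0.035). The groups separated upwards in 1 gene (3.57%, against 5.81% of all probe sets) and downwards in none (0%, against 5.91%). That gene was dab2, a clathrin adaptor for integrin uptake, at 0.20 ± 0.11. The focal adhesion kinase gene ptk2ab differed by 0.35 ± 0.22, lims2 by -0.18 ± 0.11 and the talin gene tln2a by -0.19 ± 0.14. Of 7 measured dystroglycan complex and other laminin or collagen receptor genes 3 had a positive and 4 a negative difference (median -0.054). In that list the syntrophin gene sntb1 differed by 0.33 ± 0.11 without overlap and dag1, the dystroglycan gene itself, by -0.19 ± 0.13.

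Markers of tissues that make these proteins were set beside the members. The 3 measured actinodin genes, for fin fold fibril proteins, differed more than any brighter collagen: and2 by -1.38 ± 0.13, and1 by -0.72 ± 0.13 and and3 by -0.999 ± 0.18. All 3 were without overlap, where 5.91% of all probe sets separated downwards. Among the brighter probe sets and2 was called (limma, adjusted p = 0.00993), where 0.0774% of all were. The summed linear signal of the 3 genes was 536.5 to 666.1 in EET and 1111 to 1243 in DMSO. Epidermis markers, from a list not limited to basal cells (10 measured, 7 lower, median -0.032), summed to 13660 to 14480 in EET and 14630 to 15500 in DMSO. The 4 of them with the smallest p were krt91 at -0.30 ± 0.16, krt17 at -0.47 ± 0.24 and krt4 at -0.10 ± 0.10, all with overlap, and epcam at 0.13 ± 0.10, the 1 marker whose groups did not overlap. Skeletal muscle markers (11 measured, 6 lower, median -0.052) summed to 37980 to 40510 in EET and 39310 to 41380 in DMSO. Notochord markers (7 measured, 5 lower, median -0.084) summed to 732.9 to 811.3 in EET and 777.8 to 852.9 in DMSO. Cartilage and skeletogenic markers (12 measured, 7 lower, median -0.099) summed to 910.7 to 1041 in EET and 956.7 to 1088 in DMSO. Thus the actinodin and epidermal sums did not overlap between the groups, while those of muscle, notochord and cartilage did. The epidermal gap was narrow, from 14480 in EET to 14630 in DMSO. Of the 10 epidermal markers 1 separated upwards and 0 downwards, against 5.81% and 5.91% of all probe sets. With 10 markers neither count can be read as a result about the tissue. A linear sum also leans on the brightest marker, here krt4, whose groups overlapped. No marker of these 5 lists had a mean level below 0. The part of these tissues in the collagen values was not tested.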

How the data were processed

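The deposited table holds 1 log2 value per probe set and array for 6 Affymetrix zebrafish arrays (1 colour, biotin label, 6 µg of total RNA, per the labels' protocols). The authors' background correction, probe summary and scaling are not given in the sources used here. The log base is not stated and was taken as 2, since a maximum of 13.63 on a natural or decimal scale would pass the scanner limit of 65535. Array medians were 4.81 to 4.82 and arrays correlated at 0.943 to 0.957 across probe sets. No detection calls were used. The number of arrays, the signal level and the shift of the replicate 3 arrays limit the precision.

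The table lists 15617 probe sets, from which 115 array controls were removed to leave 15502 for testing, of which 10795 had 1 gene symbol in the platform annotation, 135 several and 4572 none. All 38 member genes matched a RefSeq gene table (GRCz12tu) by Entrez identifier and 0 symbols changed. No coordinates are printed, since the array annotation has no stated build.

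EET and DMSO were compared by limma's 2-sided test (version 3.58.1, R 4.3.3) with lmFit and eBayes at their defaults and without covariates. P-values were adjusted by Benjamini-Hochberg over the 15502 probe sets, or over the 7751 brighter ones where stated. Calls were made at an adjusted p under 0.05. Standard errors and 95% intervals come from the fit over all probe sets, except those given for a single alternative setting of fn1b, which come from the brighter ones. Families and lists are described by counts and medians without a set test. For lists the probe set with the highest mean stood for a gene.

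Members, lists and alternatives were chosen with earlier results of these data known. Named were brighter members whose groups did not overlap and that differed by at least 0.25, a fixed set of structural genes, the 5 members of smallest p in each direction and up to 4 well measured genes a list. Chosen after their values were seen were col5a2a, col9a2, col9a3, col10a1b, col14a1a, col15a1a, col28a1a, itgae.2, lamb2l, lamb4, lamc3 and nid1a, named so that every member is accounted for. The dim list genes cryaa and runx2b were also named after their values were seen. Alternatives were median centring, quantile normalisation, 2 filters on dim signals, log2 of the linear value plus 32, array weights, trend and robust variance, a block for replicate number, replicate 3 as a batch or left out, each array left out, a threshold of 0.10 and other ways to join probe sets of a gene. For this comparison the procedure was tested on 10 sets of simulated data, each with 200 probe sets changed. Among 15502 probe sets it found 36.1% of those changed 2-fold and 63.5% of those changed 4-fold, with 5.5% false calls. Among the 7751 brighter ones it found 89.8% and 98.4%, with 4.18% false calls. The simulated arrays were independent and lacked the shift of the replicate 3 arrays, so these shares need not hold for the real arrays. Changes smaller than 2-fold were not simulated.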

Additional observations from a re-analysis of the deposited data

How the results depend on the processing

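Over all probe sets 0 members were called under every alternative run (smallest adjusted p 0.0554, with trend and robust variance). Among the brighter probe sets 0 were called, but 1, fn1b, with array weights, with the replicate block, with a replicate 3 batch term and with both replicate 3 arrays left out, and 0 to 1 with 1 array left out (1 without EET replicate 3). Arrays that share a replicate number had deviations from their group means that correlated at 0.0418, 0.056 and 0.148 over all probe sets. Over the brighter ones, where replicate spread is smaller, the correlations were 0.177, 0.239 and 0.554. The lower values include the noise of dim probe sets, so they cannot decide whether the arrays were paired. The labels do not say so either, and the fit without the block stayed the main one, as designed. With the block fn1b had an adjusted p of 0.0147 (limma) and 0.155% of brighter probe sets were called. The block cannot change the medians, since each replicate number has 1 array of each treatment. The median of all members, -0.120, was -0.037 with 32 added to the linear values. It was -0.217 in the replicate 3 pair, -0.051 without both replicate 3 arrays and -0.165 to -0.045 with 1 array left out. For collagens (-0.183) it was -0.087 with 32 added to the linear values and -0.228 to -0.129 with 1 array left out. Laminins (0.067) gave -0.205 in the replicate 3 pair and 0.029 to 0.150 with 1 left out. Fibronectins (0.419) gave 0.057 with 32 added to the linear values, 0.714 with probe sets of a gene averaged and 0.350 to 0.735 with 1 left out (highest without EET replicate 1). The fibronectin median joins fn1b at 1.15 with fn1a probe sets on both sides of 0, so it gives no direction for the family. Integrins (-0.124) gave 0.185 without both replicate 3 arrays and -0.228 to 0.285, the highest without DMSO replicate 3. The nidogen, fibulin and sparc genes (0.019) gave 0.714 in the replicate 3 pair and -0.342 to 0.385. Groups not overlapping numbered 2 higher and 9 lower. The higher count was 1 with probe sets of a gene averaged, 12 without both replicate 3 arrays and 2 to 8 with 1 array left out, and the lower count 15 and 9 to 19 in the same smaller sets, where fewer arrays make overlap rarer. The shares of all probe sets were not counted in those smaller sets, so these counts cannot be read as a result about the members.

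Among named members 37 values turned sign, all in genes that were not called. In the replicate 3 pair these were col10a1a (-0.63), col11a1a (-0.35), col12a1b (-0.05), col6a3 (0.19), col8a1a (0.20), fn1a on its dim probe sets (-1.01 and 0.63), lama4 (-0.17 and 0.29) and fbln1 (1.88). Without both replicate 3 arrays they were col15a1b (-0.03), col9a1b (0.10), itga6b (0.12), lamc1 (0.14) and fbln1 (-0.27), and with array weights col9a1b (0.01). With 1 array left out the ranges that cross 0 were -0.05 to 0.18 for col11a1a, -0.08 to 0.14 for col12a1b, -0.06 to 0.11 for col15a1b, -0.27 to 0.06 for col6a3, -0.13 to 0.17 for col9a1b, -1.11 to 0.47 for fn1a (dim), -0.37 to 0.02 for itga6b, -0.11 to 0.07 for lama4, -0.16 to 0.14 for lamc1, and -1.28 to 0.58 and -0.46 to 0.52 for fbln1. Of the actinodin genes 1 was called over all probe sets with 32 added to the linear values and with trend and robust variance. The share of all called was not counted there. Among the brighter probe sets alone 1 was called too, where 0.0774% of all were. The cause was not tested. Both col1a1a and col1a2 probe sets and fn1b kept their sign in every setting. This was not particular to them, since other named members, such as col28a2a and the brightest fn1a probe set, kept theirs too. Low signal limits the 20 dimmer members, whose median SD between replicates was 0.474, against 0.147 for the brighter ones. Some of them, such as col11a2 and col28a1a, still had narrow intervals.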
